A study of Mus musculus with 8 samples.

Results

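The genes described here encode the enzymes that bring pyruvate into the mitochondrion's oxidative pathway, those of the tricarboxylic acid (TCA) cycle, and those that break down the branched-chain amino acids (BCAAs) leucine, isoleucine and valine together with propionate. The 38 genes were taken by symbol, by a rule that names no measured value, from the 41325 symbols that each library lists, and fall into 3 blocks of 7 genes (pyruvate entry), 13 genes (TCA cycle) and 18 genes (BCAA and propionate breakdown). The genes and blocks were nevertheless chosen with earlier results of these data known. RNA-seq was made from the C3H10T1/2 line of mouse mesenchymal stem cells (MSCs), which can turn into fat cells. Control cells (shControl) and the stable knockdown lines shKDM4D, shNFIB and shMLL1, directed against a histone demethylase, a transcription factor and a histone methyltransferase, were each taken at day 0, when confluent, and at day 5 after an adipogenic cocktail of insulin, dexamethasone and isobutylmethylxanthine. All 4 lines received that treatment, and the knockdown lines are puromycin-resistant clones that carry an shRNA from the pLKO.1 vector. The labels name the control genotype WT and do not name a clone. There is 1 library per condition and 8 libraries in all.

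Pyruvate reaches the TCA cycle either as acetyl-CoA, made by the pyruvate dehydrogenase complex, or as oxaloacetate, made by pyruvate carboxylase. The cycle then oxidises acetyl units and supplies citrate, which adipocytes export as a source of carbon for fatty acids. BCAAs are first transaminated by a cytosolic (BCAT1) or a mitochondrial (BCAT2) enzyme, and the keto acids are committed to breakdown by the branched-chain keto acid dehydrogenase complex (BCKDH), which a dedicated kinase switches off. Leucine then yields acetyl-CoA and acetoacetate, isoleucine yields acetyl-CoA and propionyl-CoA, and valine yields propionyl-CoA, which enters the cycle as succinyl-CoA. White adipocytes are known to raise BCAA breakdown as they mature.

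Levels are given as RPKM (reads per kilobase of exon, scaled to the mapped reads of the library). RPKM divides by the exon length of the gene model, so levels of different genes set side by side depend on that length. Whether the model has the length of the transcripts in these cells was not tested. The mapped reads ranged from 15800000 in shNFIB cells at day 5 to 38200000 in shMLL1 cells at day 0. With RPKM over 1 in at least 1 library, 37 of the 38 genes counted as expressed, against 11513 of all genes, and each of the 37 was covered by at least 160 reads in every library. A gene was said to rise or fall in a comparison of libraries when its ratio of RPKM was over 2 or under 0.5. Log2 ratios carry an exact 95% interval that covers counting error only. Each line has 1 library per day, so ratios within a line or between lines carry no p-value. The mean change over the 4 lines was tested with limma on log2(RPKM + 0.1), with line and day as terms and adjustment over all expressed genes. This test was chosen after seeing the data, has 3 residual degrees of freedom, and takes its error from the spread between lines that differ in knockdown. In these bulk libraries fewer cells of a type and less RNA per cell cannot be told apart.

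The labels were checked against markers. *Nfib* was at 9.92 in shControl and 2.31 in shNFIB cells at day 0, *Kmt2a* (MLL1) had 5.17 in shControl and 2.00 in shMLL1 cells, and *Kdm4d* was covered by 1 to 15 reads in every library. At day 0 *Kdm4d* had 2 reads in shControl and 1 in shKDM4D cells, too few to check the shKDM4D label. The mesenchymal markers *Pdgfra*, *Pdgfrb*, *Ly6a*, *Vim* and *Col1a1* were present in all 8 libraries, but *Thy1* was at 0.139 or less in shKDM4D and shNFIB cells, against day 0 levels of 25.0 in shControl and 11.8 in shMLL1 cells. The summed RPKM of 8 adipocyte markers went from 10.9 to 831 in shControl cells, from 7.42 to 39.1 in shKDM4D cells, from 7.40 to 12.1 in shNFIB cells and from 4.12 to 12.5 in shMLL1 cells between day 0 and day 5. Of the other lists, osteoblast and muscle markers summed to at most 1.35, macrophage markers to at most 1.66 (almost all *Cd68*), and the cartilage collagen gene *Col2a1* lay between 6.87 and 27.5 at day 0 while *Acan* and *Matn1* were near 0. The part of these differences in the results below was not tested.

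The sequence upstream of 3 genes that moved far is shown, 250 bases ending at the base before an annotated transcription start, because *Bcat2* and *Pcx* rose and *Bcat1* fell in the same cells. The sequences are from RefSeq on build GRCm38.p6, written 5′ to 3′ on the strand of the gene, with any match to AGGTCA, the core recognised by many nuclear receptors, in capitals.
*Bcat2* (chr7:45569903-45570152, plus strand): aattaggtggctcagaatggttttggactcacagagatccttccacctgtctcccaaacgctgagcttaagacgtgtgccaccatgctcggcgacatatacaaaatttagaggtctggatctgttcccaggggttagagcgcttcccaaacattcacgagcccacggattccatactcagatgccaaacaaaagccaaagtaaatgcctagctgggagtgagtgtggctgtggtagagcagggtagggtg
*Pcx* (chr19:4510222-4510471, plus strand): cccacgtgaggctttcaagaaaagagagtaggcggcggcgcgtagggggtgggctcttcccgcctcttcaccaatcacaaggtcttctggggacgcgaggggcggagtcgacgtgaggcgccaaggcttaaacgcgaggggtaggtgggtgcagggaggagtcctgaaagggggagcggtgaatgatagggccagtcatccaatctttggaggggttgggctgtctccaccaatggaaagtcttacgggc
*Bcat1* (chr6:145048813-145049062, minus strand): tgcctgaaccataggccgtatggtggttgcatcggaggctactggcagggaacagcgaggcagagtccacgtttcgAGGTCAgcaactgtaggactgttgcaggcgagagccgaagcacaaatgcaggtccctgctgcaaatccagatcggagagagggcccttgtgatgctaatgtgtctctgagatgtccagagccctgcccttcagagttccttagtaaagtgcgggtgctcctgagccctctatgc
Of these 3 windows only that of *Bcat1* holds AGGTCA, which starts at position -174 counted from the transcription start used. Each of the 3 genes has 2 windows, of which 1 is shown. The *Bcat1* window belongs to an internal start, inside the gene as annotated (144993835 to 145076184), and not to its 5′ end. Those of *Bcat2* and *Pcx* end at the base before the annotated gene. Searched on both strands in the same length of sequence, with a gene counted when any of its windows had a match, AGGTCA occurred upstream of 6 of the 36 genes with an entry in the table (*Sucla2*, *Fh1*, *Bcat1*, *Bckdhb*, *Aldh6a1* and *Pcca*; 16.7%) and upstream of 15.8% of 27025 genes. The NRF1 motif GCGCATGCG was found for *Ogdh* and *Pccb*, against 1.64% of all genes. The longer estrogen-related receptor motif TCAAGGTCA, which contains AGGTCA, was not in any window of the 36 genes. Nor were the C/EBP motif TTGCGCAA and the palindromic nuclear factor I motif. In the same order, these motifs were found for 0.422%, 0.185% and 0.0444% of all genes.

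From day 0 to day 5 the BCAA and propionate genes moved most. In shControl cells 11 of the 18 rose more than 2-fold and only *Bcat1* fell, with a median log2 ratio of 1.28 against 0.03 over all expressed genes. None of the 13 TCA cycle genes passed the 2-fold limit (median 0.19), and of the 6 expressed pyruvate genes only *Pcx* did (median 0.44). Over the 3 blocks 12 of 37 genes rose in shControl cells, where 13.0% of all expressed genes rose, and 1 fell, where 8.56% fell. The summed RPKM of the BCAA block went from 99.6 to 227 in these cells, that of the TCA block from 353 to 439 and that of the pyruvate block from 156 to 255.

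The BCAA block also had the highest median in each knockdown line, smaller than in shControl cells. In shKDM4D cells the median log2 ratio was 0.89 in the BCAA block, 0.05 in the TCA block and 0.05 in the pyruvate block. In shNFIB cells the medians were 0.70, 0.08 and 0.15, beside 0.10 over all genes, and in shMLL1 cells they were 1.03, -0.14 and -0.01, beside 0.17 over all genes. The genes that rose numbered 9 of 37 in shKDM4D cells (12.8% of all expressed genes), 5 in shNFIB cells (12.6%) and 11 in shMLL1 cells (20.4%). Those that fell numbered 1 for shKDM4D cells (8.44%), 0 for shNFIB cells (4.96%) and 2 for shMLL1 cells (6.89%). The 5 in shNFIB cells are 13.5% of the genes, close to the 12.6% over all genes.

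**Figure D1:**
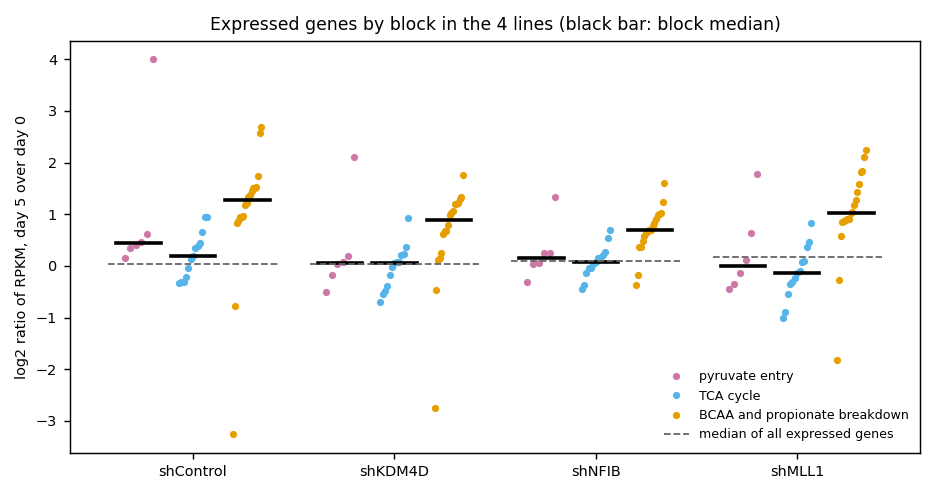
Log2 ratio of RPKM at day 5 over day 0 for each expressed gene (points) by block in the 4 lines, with the block median as a black bar and the median of all expressed genes as a dashed line. The median of the BCAA block lies at 1.28, 0.89, 0.70 and 1.03 in shControl, shKDM4D, shNFIB and shMLL1 cells, above both other blocks in each line.

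The direction of the BCAA block was shared by the lines, which have no library in common in this comparison. Of its 18 genes, 16 had a higher RPKM at day 5 than at day 0 in all 4 lines and the other 2, *Bcat1* and *Bckdk*, had a lower one in all 4. These counts were the same under quantile, median-of-ratios and same-sum scaling. Over all expressed genes 36.6% were higher at day 5 in all 4 lines, and between 28.4% and 40.3% under these scalings. Lower in all 4 were 3207 of the 11513 expressed genes, and between 2775 and 4042 under these scalings. In the TCA block 5 genes were higher in all 4 lines (38.5%, close to the 36.6% over all genes), 5 were lower in all 4 and 3 differed in sign. Higher in all 4 were then 4 under quantile, 2 under median-of-ratios (*Idh2* and *Suclg1*) and 5 under same-sum scaling, and lower in all 4 were 5, 5 and 3. In the pyruvate block 3 were higher in all 4, against 2 under quantile and median-of-ratios scaling, where *Pdhb* turned below 0 in shMLL1 cells. More than 2-fold higher in all 4 lines were *Pcx*, *Bcat2*, *Mccc1* and *Mcee*, 4 of 37, where the share over all expressed genes was 6.93%.

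The mean change over the 4 lines passed the limma test (adjusted p under 0.05) for all 18 BCAA genes, 16 of them upward. Over the 3 blocks 20 of 37 genes passed upward and 5 downward, where 29.0% and 21.0% of all expressed genes did (21.1% and 27.6% under quantile normalization). In the TCA block *Idh2* and *Suclg1* passed upward and *Cs*, *Idh3a* and *Mdh2* downward, and in the pyruvate block *Pcx* and *Pdhx* passed upward. The mean log2 change of *Bcat2* was 1.87 (95% interval 1.36 to 2.38, limma adjusted p = 0.00144), that of *Pcx* was 2.27 (1.26 to 3.28, adjusted p = 0.00619) and that of *Idh2* was 0.85 (0.64 to 1.06, adjusted p = 0.00113). *Bcat1* had -1.94 (-3.06 to -0.81, adjusted p = 0.0157), *Bckdk* -0.47 (-0.73 to -0.20, adjusted p = 0.0141) and *Cs* -0.54 (-0.87 to -0.22, adjusted p = 0.0168).

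When each line was left out in turn, and under another pseudocount and 2 other scalings, 16 genes passed upward every time, 13 of them in the BCAA block, and *Cs* and *Idh3a* passed downward every time. How many of all expressed genes passed every time was not counted. Without shKDM4D cells 2 genes passed downward in place of 5, and *Bcat1* (adjusted p = 0.0592), *Bckdk* (0.0513) and *Mdh2* (0.0870) did not. The share of all expressed genes that passed downward also went from 21.0% to 15.4% there. *Bckdk* did not pass without shControl cells either (0.0532), nor did *Mdh2* without shControl (0.0584) or shMLL1 cells (0.0689). *Dbt* did not pass without shNFIB cells (0.0509). *Hibch* failed without shControl (0.0682) or shMLL1 cells (0.0864), and *Acad8* and *Pdhx* failed without each of shControl, shNFIB and shMLL1 cells, at adjusted p between 0.0641 and 0.146.

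**Figure D2:**
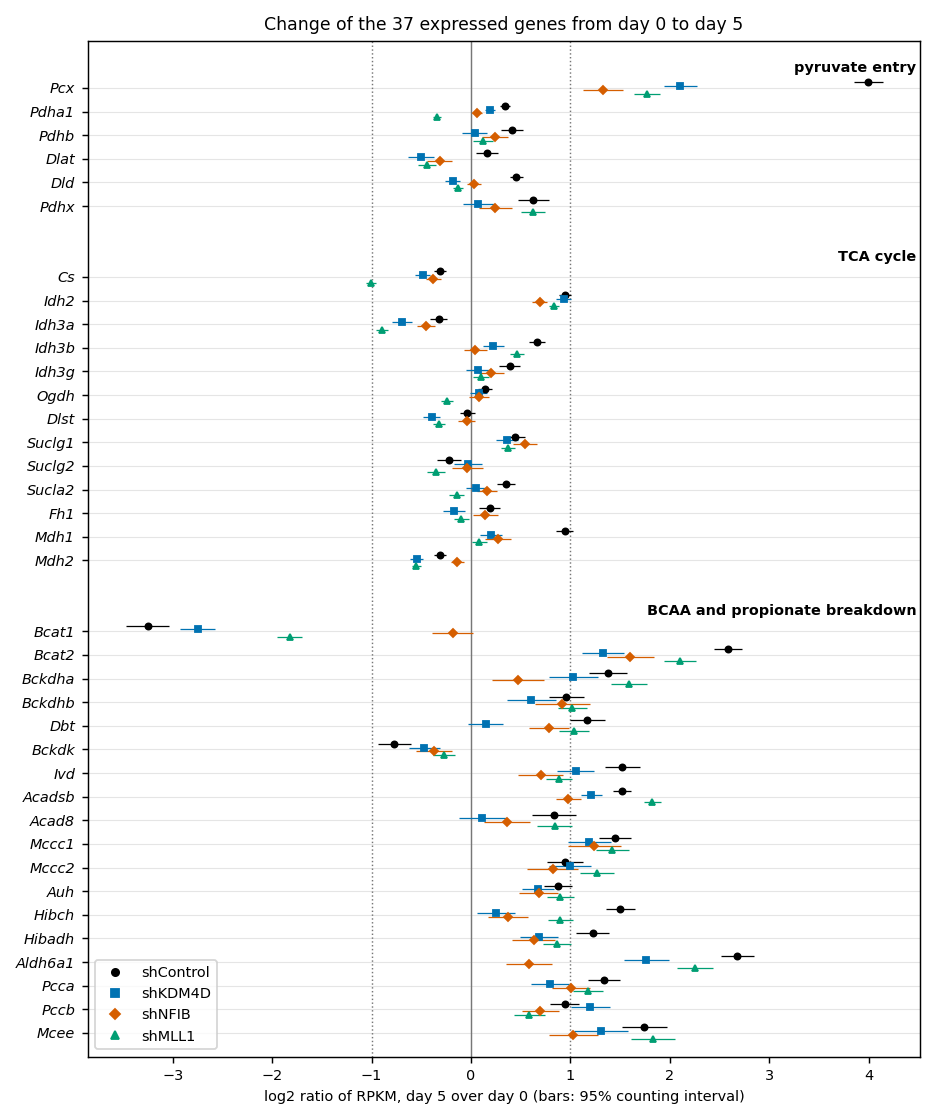
Log2 ratio of RPKM at day 5 over day 0 for the 37 expressed genes in the 4 lines, with 95% counting intervals as bars and dotted lines at 2-fold. Apart from *Bcat1* and *Bckdk*, the BCAA genes lie to the right of 0 in every line, while the TCA genes lie between -1.01 and 0.94.

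The 2 branched-chain aminotransferases moved in opposite directions. *Bcat2* (chromosome 7, 45570153 to 45589711, plus strand), the mitochondrial enzyme, had an RPKM of 5.03 at day 0 and 30.1 at day 5 in shControl cells, 3.45 and 8.65 for shKDM4D, 2.83 and 8.58 for shNFIB, and 2.64 and 11.3 for shMLL1 cells. Every day 5 library lay above every day 0 library, and shControl cells were highest at both days. The log2 change was 2.58 (95% interval 2.44 to 2.72) in shControl cells, above 96.6% of all expressed genes, 1.33 (1.12 to 1.53) for shKDM4D, 1.60 (1.37 to 1.84) for shNFIB and 2.10 (1.94 to 2.26) for shMLL1 cells. How many of all expressed genes had every day 5 library above every day 0 library was not counted, here or for the genes below.

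*Bcat1* (chromosome 6, 144993835 to 145076184, minus strand), the cytosolic enzyme, had an RPKM of 10.0 at day 0 and 1.05 at day 5 in shControl cells, 10.3 and 1.54 for shKDM4D, 2.61 and 2.30 for shNFIB, and 6.77 and 1.92 for shMLL1 cells. It was low at day 5 in all lines, and in shNFIB cells it was already low at day 0. The log2 change was -3.25 (-3.47 to -3.04) in shControl cells, -2.74 (-2.92 to -2.57) for shKDM4D and -1.82 (-1.95 to -1.70) for shMLL1 cells. In shNFIB cells it was -0.18, with an interval from -0.39 to 0.02 that covers 0. Only 0.530% of all expressed genes fell further in shControl cells.

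**Figure D3:**
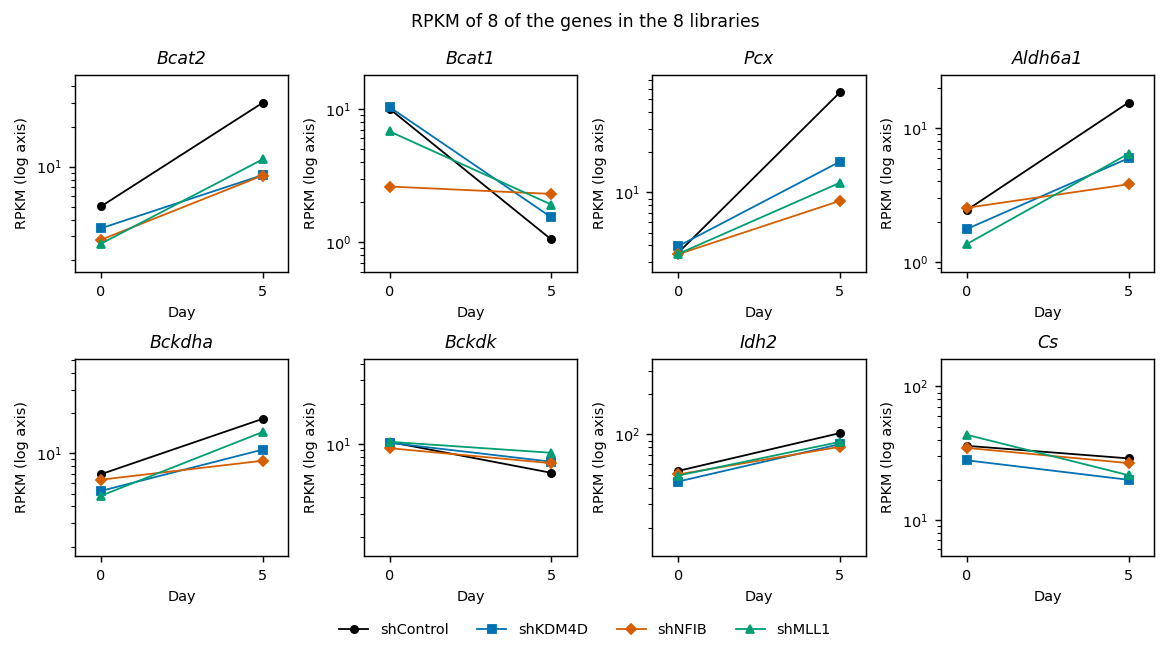
RPKM (log axis, a separate scale for each gene) of 8 of the genes at day 0 and day 5 in the 4 lines, 1 point per library. *Bcat2*, *Pcx*, *Aldh6a1*, *Bckdha* and *Idh2* are higher at day 5 in every line, *Bcat1*, *Bckdk* and *Cs* are lower, and shControl cells have the highest day 5 level of the 5 genes that are higher.

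The ratio of the mitochondrial to the cytosolic aminotransferase within a library does not depend on any factor by which a library is scaled. *Bcat2* stood at 0.503 of the *Bcat1* level in shControl cells at day 0 and at 28.7 times that level at day 5. The ratio went from 0.335 to 5.62 in shKDM4D cells, from 1.08 to 3.73 in shNFIB cells and from 0.390 to 5.92 in shMLL1 cells. Thus *Bcat1* had the higher RPKM at day 0 in all lines but shNFIB, and *Bcat2* had the higher RPKM at day 5 in all 4.

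The subunits of BCKDH were also higher at day 5, and its kinase was lower. *Bckdha* (chromosome 7, 25629946 to 25658981, minus strand), which encodes the E1 alpha subunit, had an RPKM of 6.98 and 18.1 at day 0 and day 5 in shControl cells, 5.23 and 10.7 for shKDM4D, 6.35 and 8.81 for shNFIB, and 4.81 and 14.5 for shMLL1 cells. It rose in 3 lines and changed least in shNFIB cells, where the log2 ratio was 0.47 (0.21 to 0.74) against 1.38 (1.19 to 1.57) in shControl and 1.59 (1.41 to 1.77) in shMLL1 cells. *Bckdhb*, the E1 beta subunit, had an RPKM of 9.61 and 18.7 in shControl cells, 6.15 and 9.38 for shKDM4D, 5.22 and 9.86 for shNFIB, and 8.37 and 16.9 for shMLL1 cells. It passed the 2-fold limit only in shMLL1 cells, by a narrow margin (1.02, interval 0.87 to 1.16), with 0.96 (0.79 to 1.13) in shControl cells. *Dbt*, the E2 core of the complex, had an RPKM of 4.92 and 11.1 in shControl cells, 7.28 and 8.06 for shKDM4D, 5.68 and 9.77 for shNFIB, and 4.18 and 8.57 for shMLL1 cells. The change of *Dbt* in shKDM4D cells was 0.15, with an interval from -0.03 to 0.32, and the difference of that change from the one in shControl cells was -1.02 (-1.27 to -0.78).

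*Bckdk* (chromosome 7, 127904082 to 127910221, plus strand) encodes the kinase that phosphorylates and inactivates E1. Its RPKM was 10.4 and 6.08 at day 0 and day 5 in shControl cells, 10.2 and 7.36 for shKDM4D, 9.29 and 7.17 for shNFIB, and 10.4 and 8.59 for shMLL1 cells. The day 0 levels lay within a narrow range, and every day 5 level was lower, although none passed the 2-fold limit (log2 -0.77, -0.47, -0.37 and -0.27 in the same order, with all intervals below 0). *Bckdk* stood at 1.49 times the level of *Bckdha* in shControl cells at day 0 and at 0.335 times at day 5. The same ratio went from 1.95 to 0.690 in shKDM4D, from 1.46 to 0.815 in shNFIB and from 2.16 to 0.594 in shMLL1 cells. The RPKM of the kinase was thus above that of its substrate in every day 0 library and below it in every day 5 library. The exon lengths of *Bckdk* and *Bckdha* are 3695 and 1899 bases. At day 5 the reads of *Bckdk* exceeded those of *Bckdha* in shKDM4D (588 and 438), shNFIB (420 and 265) and shMLL1 cells (1210 and 1047). In shControl cells they did not (434 and 666). *Dld*, the E3 subunit that BCKDH shares with the pyruvate and 2-oxoglutarate dehydrogenases, was far more abundant than the other BCKDH subunits, between 37.0 and 58.8 in all libraries.

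**Figure D4:**
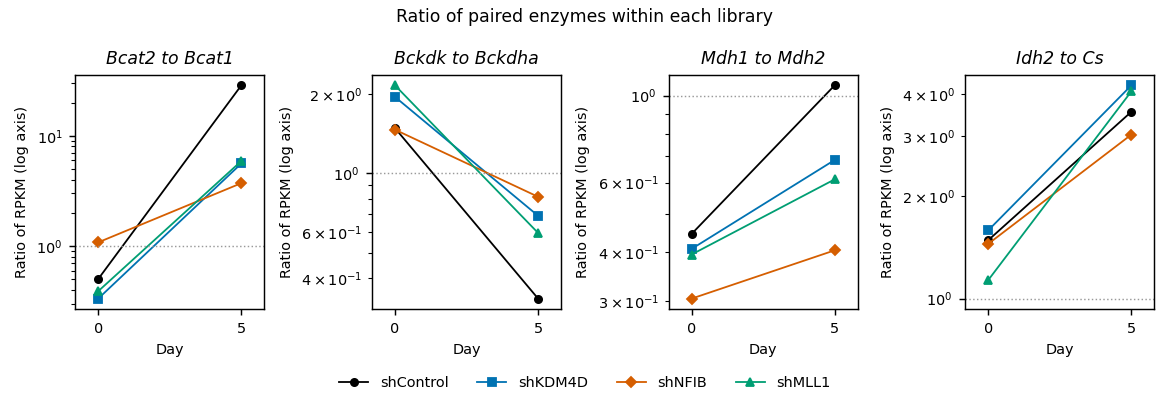
Ratio of RPKM of 4 pairs of enzymes within each library (log axes, a separate scale for each pair) at day 0 and day 5 in the 4 lines, with a dotted line at equal levels. *Bcat2* to *Bcat1* and *Idh2* to *Cs* are higher at day 5 in every line, *Bckdk* to *Bckdha* crosses below 1, and *Mdh1* exceeds *Mdh2* only in shControl cells at day 5.

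In the leucine branch, *Ivd*, which encodes isovaleryl-CoA dehydrogenase, had an RPKM of 2.69 and 7.73 at day 0 and day 5 in shControl cells, 3.17 and 6.58 for shKDM4D, 2.68 and 4.35 for shNFIB, and 3.57 and 6.59 for shMLL1 cells. The groups of day 0 and day 5 libraries did not overlap, and *Ivd* rose past 2-fold in shControl (1.52, 1.35 to 1.70) and shKDM4D cells (1.05, 0.87 to 1.24). *Mccc1* and *Mccc2* encode the alpha and beta subunits of methylcrotonyl-CoA carboxylase, a biotin enzyme. *Mccc1* had an RPKM of 1.58 and 4.30 in shControl cells, 1.19 and 2.72 for shKDM4D, 0.861 and 2.03 for shNFIB, and 1.02 and 2.72 for shMLL1 cells. Its log2 change lay between 1.19 and 1.45 in the 4 lines, and in each knockdown line the interval of its difference from shControl cells covered 0. *Mccc2* had an RPKM of 5.77 and 11.1 in shControl cells, 4.77 and 9.49 for shKDM4D, 4.02 and 7.10 for shNFIB, and 3.59 and 8.63 for shMLL1 cells. Its RPKM stayed 2.58 to 4.66 times that of *Mccc1* in the 8 libraries. The exon lengths of *Mccc2* and *Mccc1* are 2802 and 10952 bases, and their reads were 431 and 460 in shControl cells at day 0. *Mccc2* passed the 2-fold limit only in shMLL1 cells (1.27, 1.09 to 1.44). *Auh*, the hydratase that follows, lay between 1.90 and 5.07 and did not pass the limit in any line (log2 0.67 to 0.90).

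In the isoleucine and valine branches the acyl-CoA dehydrogenase *Acadsb* had an RPKM of 7.84 and 22.4 in shControl cells, 7.47 and 17.3 for shKDM4D, 6.20 and 12.2 for shNFIB, and 4.86 and 17.2 for shMLL1 cells. All day 5 values exceeded all day 0 values, and the change was greater in shMLL1 cells (1.83, 1.74 to 1.91) than in shControl cells (1.52, 1.43 to 1.61), a difference of 0.31 (0.18 to 0.43) where the median difference over all genes was 0.15. *Acad8*, the isobutyryl-CoA dehydrogenase of the valine branch, lay between 2.62 and 4.98 and did not pass the limit in any comparison. *Hibch*, the 3-hydroxyisobutyryl-CoA hydrolase, had an RPKM of 3.53 and 9.97 in shControl cells, 3.45 and 4.11 for shKDM4D, 3.51 and 4.53 for shNFIB, and 3.19 and 5.95 for shMLL1 cells. It started from nearly the same level in all lines, and rose past 2-fold only in shControl cells (2.83-fold, log2 interval 1.35 to 1.65). The change was smaller than in shControl cells by a log2 difference of -1.25 (-1.48 to -1.01) for shKDM4D, -1.13 (-1.38 to -0.89) for shNFIB and -0.60 (-0.79 to -0.41) for shMLL1 cells.

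*Hibadh*, the next dehydrogenase of the valine branch, had an RPKM of 1.77 and 4.13 in shControl cells, 1.73 and 2.78 for shKDM4D, 1.68 and 2.60 for shNFIB, and 1.64 and 2.98 for shMLL1 cells. The 4 day 0 levels were again close to each other, and only shControl cells passed 2-fold (1.22, 1.06 to 1.39). *Aldh6a1* (chromosome 12, 84430717 to 84451004, minus strand) encodes methylmalonate semialdehyde dehydrogenase, which ends valine breakdown in propionyl-CoA. It had an RPKM of 2.44 and 15.6 in shControl cells, 1.76 and 5.97 for shKDM4D, 2.54 and 3.81 for shNFIB, and 1.36 and 6.45 for shMLL1 cells. With a fold of 6.40 it rose most of the 18 genes in shControl cells (2.68, 2.52 to 2.84) and in shMLL1 cells (2.25, 2.07 to 2.43), with intervals that overlap those of *Bcat2*. The change in shNFIB cells was inside the 2-fold limit (0.59, 0.35 to 0.82). It was smaller there than in shControl cells by a log2 difference of -2.09 (-2.37 to -1.81).

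Propionyl-CoA is carboxylated by the PCCA and PCCB subunits of propionyl-CoA carboxylase and then epimerised by MCEE. *Pcca* had an RPKM of 3.52 and 8.89 in shControl cells, 3.38 and 5.85 for shKDM4D, 3.77 and 7.57 for shNFIB, and 2.67 and 6.05 for shMLL1 cells. It rose in 3 lines, in shNFIB cells just past the limit (1.00, 0.82 to 1.19). *Pccb* had an RPKM of 8.90 and 17.1 in shControl cells, 5.28 and 12.1 for shKDM4D, 7.71 and 12.5 for shNFIB, and 5.44 and 8.16 for shMLL1 cells. Only shKDM4D cells passed 2-fold (1.20, 1.00 to 1.40), with 0.94 (0.79 to 1.09) in shControl cells. *Mcee* had an RPKM of 9.19 and 30.7 in shControl cells, 8.57 and 21.1 for shKDM4D, 12.3 and 25.0 for shNFIB, and 5.91 and 21.04 for shMLL1 cells. Its RPKM was the highest of the block at day 5, with an exon length of 956 bases. *Mcee* rose in all 4 lines, by a log2 ratio of 1.74 (1.52 to 1.97) in shControl and 1.03 (0.78 to 1.27) in shNFIB cells.

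In the pyruvate block, *Pcx* (chromosome 19, 4510472 to 4621752, plus strand), which encodes pyruvate carboxylase, stood apart. It had an RPKM of 3.53 at day 0 and 56.3 at day 5 in shControl cells, 3.95 and 17.0 for shKDM4D, 3.44 and 8.64 for shNFIB, and 3.46 and 11.8 for shMLL1 cells. The 4 day 0 values differed little, and the 4 day 5 values did so widely, with shControl cells far above the others. The rise was 15.9-fold in shControl cells (log2 3.99, 3.85 to 4.14), above 98.2% of all expressed genes, and the log2 change was 2.11 (1.94 to 2.27) for shKDM4D, 1.33 (1.13 to 1.53) for shNFIB and 1.77 (1.64 to 1.90) for shMLL1 cells. It was smaller than in shControl cells by a difference of -1.89 (-2.11 to -1.67), -2.67 (-2.91 to -2.42) and -2.22 (-2.41 to -2.03), respectively. Of the 37 genes *Pcx* had the largest such difference in shKDM4D and shMLL1 cells.

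*Pck1*, the cytosolic phosphoenolpyruvate carboxykinase of glyceroneogenesis, had at most 3 reads in any library (an RPKM of at most 0.0453), at or under the 3 reads taken as the floor, and no ratio is given for it.

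The pyruvate dehydrogenase genes did not pass 2-fold in any of the 10 comparisons. *Pdha1* (E1 alpha) lay between 68.9 and 110.4, *Pdhb* (E1 beta) between 11.2 and 18.8, *Dlat* (E2) between 8.28 and 13.9, and *Pdhx*, the E3-binding protein, between 6.13 and 9.91. In every library *Pdha1* was 5.24 to 7.88 times as abundant as *Pdhb*, its partner in the E1 tetramer. From day 0 to day 5 the log2 ratios lay between 0.16 (*Dlat*) and 0.63 (*Pdhx*) in shControl cells. *Dlat* was lower at day 5 in each knockdown line (-0.50, -0.32 and -0.45 in shKDM4D, shNFIB and shMLL1 cells), with intervals below 0. The signs of *Pdha1* in shNFIB cells (0.06) and *Pdhb* in shMLL1 cells (0.12) turned under quantile and median-of-ratios scaling. *Pcx* stood at 0.0453 of the *Pdha1* level in shControl cells at day 0 and at 0.571 at day 5, against 0.187, 0.0783 and 0.171 at day 5 in shKDM4D, shNFIB and shMLL1 cells.

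The TCA cycle genes were abundant, and from day 0 to day 5 only *Cs* in shMLL1 cells passed 2-fold. Their RPKM lay between 8.44 (*Suclg2*) and 102 (*Idh2*), while the BCAA genes lay between 0.861 and 30.7. *Cs* (chromosome 10, 128337734 to 128362479, plus strand) encodes citrate synthase, which opens the cycle. It had an RPKM of 35.9 and 28.9 at day 0 and day 5 in shControl cells, 28.0 and 19.96 for shKDM4D, 34.6 and 26.6 for shNFIB, and 43.4 and 21.6 for shMLL1 cells. The day 5 value was lower in each line, and in shMLL1 cells it lay just past the 2-fold limit (-1.01, -1.06 to -0.96), where scaling the libraries to the same sum of RPKM took it back inside.

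*Idh2* (chromosome 7, 80094846 to 80115392, minus strand), the mitochondrial NADP-dependent isocitrate dehydrogenase, had an RPKM of 53.3 and 102 in shControl cells, 44.4 and 84.6 for shKDM4D, 50.2 and 80.9 for shNFIB, and 49.2 and 88.0 for shMLL1 cells. The day 0 and day 5 libraries did not overlap, and the log2 ratios of 0.94, 0.93, 0.69 and 0.84 were all under the limit. In shKDM4D cells the change differed from that in shControl cells by -0.01 (-0.11 to 0.08). The difference was -0.25 (-0.35 to -0.16) in shNFIB and -0.10 (-0.18 to -0.02) in shMLL1 cells. *Idh2* stood at 1.48 times the *Cs* level in shControl cells at day 0 and at 3.54 times at day 5, and the ratio at day 5 was between 3.04 and 4.24 in the knockdown lines. The NAD-dependent enzyme is made of IDH3A, IDH3B and IDH3G, and *Idh3a*, its catalytic subunit, was lower at day 5 in all 4 lines (-0.33, -0.70, -0.45 and -0.89) while *Idh3b* was higher (0.66, 0.23, 0.04 and 0.46). *Idh3g* was also higher in all 4 as deposited (0.07 to 0.39). Median-of-ratios scaling turned the sign of *Idh3b* in shNFIB cells and of *Idh3g* in shMLL1 cells.

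*Mdh1* (chromosome 11, 21556787 to 21572367, minus strand) encodes the cytosolic malate dehydrogenase of the malate-aspartate shuttle. It had an RPKM of 28.6 and 55.1 at day 0 and day 5 in shControl cells, 23.4 and 27.03 for shKDM4D, 19.5 and 23.5 for shNFIB, and 28.9 and 30.6 for shMLL1 cells. The shControl library at day 5 stood alone, with a log2 change of 0.94 (0.86 to 1.03) against 0.08 to 0.27 in the knockdown lines, the lowest of which, in shMLL1 cells, turned its sign under median-of-ratios scaling. *Mdh2*, the mitochondrial isoenzyme, was lower at day 5 in all 4 lines (-0.14 to -0.55). The *Mdh1* to *Mdh2* ratio went from 0.444 to 1.06 in shControl cells, from 0.407 to 0.686 in shKDM4D, from 0.304 to 0.404 in shNFIB and from 0.394 to 0.612 in shMLL1 cells. The other members, *Ogdh* and *Dlst* of the 2-oxoglutarate dehydrogenase, *Suclg1*, *Suclg2* and *Sucla2* of the succinyl-CoA ligases, and fumarase *Fh1*, had log2 changes between -0.40 and 0.54 in the 4 lines. *Sucla2*, of the ADP-forming ligase, was 1.65 to 2.96 times as abundant as *Suclg2*, of the GTP-forming ligase, in the 8 libraries.

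At day 5 each knockdown line was compared with shControl cells. The 3 comparisons share the shControl library, and their values are given side by side. Below 0.5 of the shControl level were 5 of 37 genes in shKDM4D cells (*Pcx*, *Mdh1*, *Bcat2*, *Hibch* and *Aldh6a1*), where 4.57% of all expressed genes fell, 7 in shNFIB cells (*Pcx*, *Mdh1*, *Bcat2*, *Bckdha*, *Mccc1*, *Hibch* and *Aldh6a1*), where 5.67% fell, and 4 in shMLL1 cells (*Pcx*, *Bcat2*, *Aldh6a1* and *Pccb*), where 4.02% fell. More than 2-fold above shControl cells were 0 genes in shKDM4D cells (1.88% of all expressed genes), *Bcat1* alone in shNFIB cells (5.54%) and 0 genes in shMLL1 cells (5.25%). As to the blocks, the median log2 ratio of the BCAA block was -0.52 for shKDM4D, -0.66 for shNFIB and -0.42 for shMLL1 cells, beside 0.01, 0.09 and 0.07 over all genes. That of the TCA block was -0.42, -0.18 and -0.18, and that of the pyruvate block -0.61, -0.11 and -0.56. The summed adipocyte markers were 831 in shControl cells at day 5 and between 12.1 and 39.1 in the knockdown lines, and the part of that difference in these ratios was not tested.

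The genes furthest below shControl cells were *Pcx*, *Aldh6a1* and *Bcat2*. The log2 ratio of *Pcx* was -1.73 (-1.81 to -1.65) for shKDM4D, -2.70 (-2.82 to -2.58) for shNFIB and -2.25 (-2.33 to -2.18) for shMLL1 cells. For *Aldh6a1* these ratios were -1.39 (-1.51 to -1.26), -2.04 (-2.21 to -1.87) and -1.28 (-1.38 to -1.17). For *Bcat2* the values were -1.80 (-1.92 to -1.68), -1.81 (-1.95 to -1.68) and -1.41 (-1.50 to -1.32), but part of this distance was already there at day 0, as given below. The same holds for *Aldh6a1* in shKDM4D and shMLL1 cells, with a day 0 RPKM of 1.76 and 1.36 against 2.44 in shControl cells. *Hibch* had -1.28, -1.14 and -0.75, and *Mdh1* had -1.03, -1.23 and -0.85, so that shMLL1 cells stayed inside the 2-fold limit for both.

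In other genes the distance from shControl cells varied between the lines. *Bckdha* and *Bckdhb* had log2 ratios of -0.77 and -0.99 in shKDM4D cells and of -1.04 and -0.92 in shNFIB cells, but of -0.33 (-0.47 to -0.18) and -0.14 (-0.28 to -0.00) in shMLL1 cells. *Pccb* had -1.07 (-1.20 to -0.93) in shMLL1 cells, against -0.49 and -0.45 in shKDM4D and shNFIB cells. *Mccc1* had -1.08 (-1.26 to -0.90) in shNFIB cells and -0.66 in both other lines. Part of these distances was already there at day 0. In shNFIB cells the day 0 log2 ratio to shControl cells was -0.87 for *Mccc1* and -0.88 for *Bckdhb*. Their changes to day 5 differed from those in shControl cells by -0.21 (-0.52 to 0.10) and -0.04 (-0.36 to 0.28). *Pccb* had a day 0 RPKM of 5.44 in shMLL1 and 5.28 in shKDM4D cells, against 8.90 in shControl cells. *Bcat1* and *Bckdk* were the only 2 genes above shControl cells in each line. The log2 ratio of *Bcat1* was 0.55 (0.29 to 0.82), 1.13 (0.87 to 1.40) and 0.87 (0.63 to 1.11), and *Bckdk* had 0.28, 0.24 and 0.50, with intervals above 0.

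**Figure D5:**
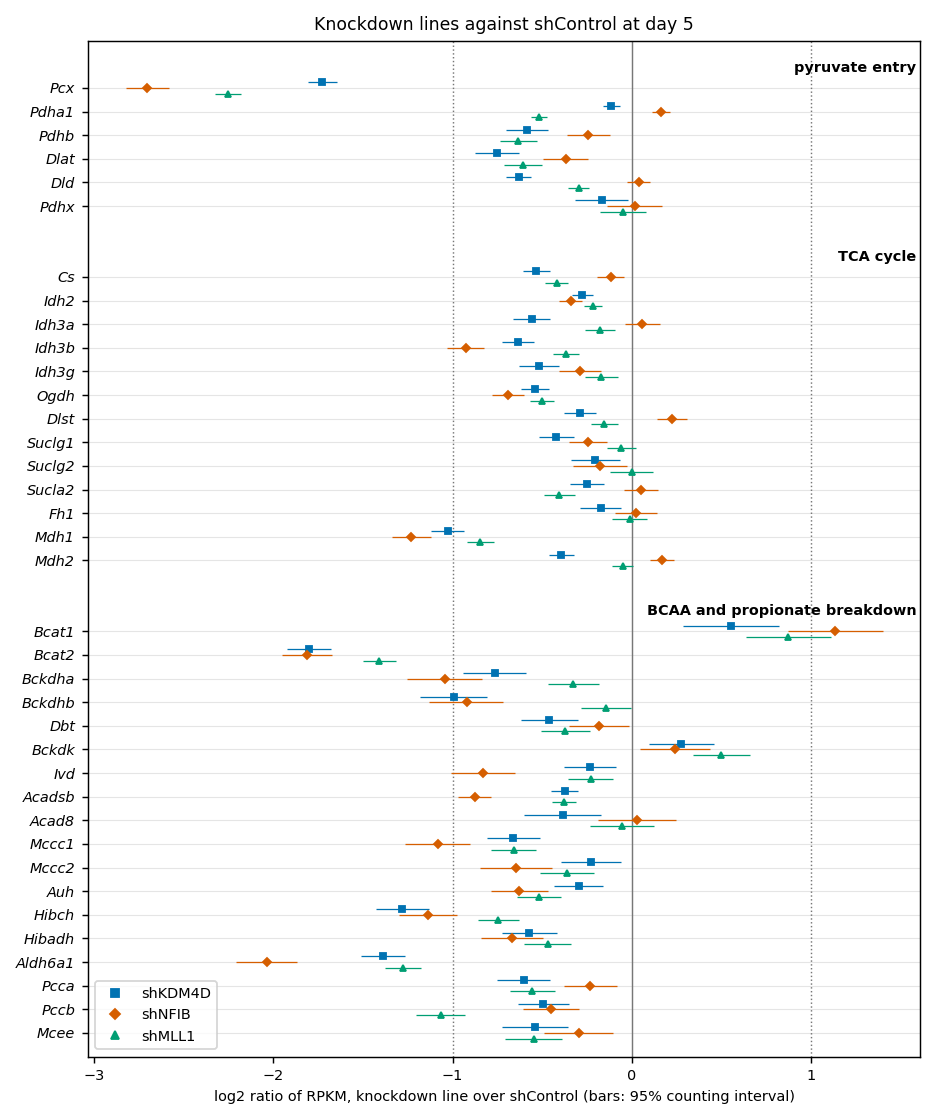
Log2 ratio of RPKM of each knockdown line over shControl cells at day 5 for the 37 expressed genes, with 95% counting intervals as bars and dotted lines at 2-fold. *Pcx* reaches -2.70, *Aldh6a1* -2.04 and *Bcat2* -1.81 in shNFIB cells, while *Bcat1* and *Bckdk* lie to the right of 0 in all 3 lines.

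The size of the change from day 0 to day 5 was also set against that of shControl cells, which takes the day 0 level into account. The median difference of the log2 changes in the BCAA block was -0.39 for shKDM4D, -0.43 for shNFIB and -0.01 for shMLL1 cells, beside 0.01, 0.07 and 0.15 over all expressed genes. That of the pyruvate block was -0.60, -0.40 and -0.60, and that of the TCA block was -0.30, -0.07 and -0.29. In shMLL1 cells *Mccc2*, like *Acadsb*, had a greater change than in shControl cells (difference 0.32, normal approximation of the counting interval 0.08 to 0.57), and the negative changes of *Bcat1* and *Bckdk* were closer to 0.

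At day 0 only *Bcat1* passed 2-fold in any knockdown line. In shKDM4D cells 0 of 37 genes fell and 0 rose, where 4.26% and 1.98% of all expressed genes did. In shMLL1 cells 0 fell and 0 rose, beside 7.43% and 1.67%. In shNFIB cells *Bcat1* was lower (-1.94, -2.08 to -1.79) and 0 rose, beside 6.05% and 2.95%. The BCAA block was lower in shMLL1 cells, with a median of -0.54 against -0.07 over all genes, and *Bcat2* (-0.93), *Aldh6a1* (-0.85) and *Pccb* (-0.71) lay furthest down. The block medians were -0.08 in shKDM4D and -0.15 in shNFIB cells. *Bcat2* was below shControl cells in each of the 3 lines at this day, by -0.54 (-0.76 to -0.33) for shKDM4D, -0.83 (-1.07 to -0.60) for shNFIB and -0.93 (-1.12 to -0.74) for shMLL1 cells. *Pcx*, in contrast, had intervals that cover 0 in all 3 (0.16, -0.04 and -0.03), and so did *Hibch* and *Hibadh*.

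A list of 47 other genes of the same pathways (transporters, regulators and further enzymes), of which 44 were expressed, was examined beside the 38. From day 0 to day 5, 7 of them rose in shControl cells (15.9%, beside 13.0% of all expressed genes), 4 in shKDM4D cells (9.1%, beside 12.8%), 3 in shNFIB cells (6.8%, beside 12.6%) and 11 in shMLL1 cells (25.0%, beside 20.4%). Those that fell numbered 3, 3, 0 and 1 in the same order (6.8%, 6.8%, 0.0% and 2.3%, beside 8.56%, 8.44%, 4.96% and 6.89%). Over the 4 lines 19 of the 44 passed the limma test upward (43.2%, beside 29.0% of all expressed genes) and 4 downward (9.1%, beside 21.0%). Among 9 pyruvate carriers and regulators of pyruvate dehydrogenase, 4 rose in shControl cells. *Mpc2*, of the mitochondrial pyruvate carrier, went from 5.08 to 11.2 RPKM. The kinases that switch the complex off, *Pdk1*, *Pdk2* and *Pdk4*, went from 4.22 to 12.02, from 2.99 to 10.3 and from 2.31 to 11.99. *Pdk4* was below shControl cells at day 5 in shKDM4D (-1.88, -2.09 to -1.67), shNFIB (-3.32, -3.70 to -2.96) and shMLL1 cells (-1.10, -1.24 to -0.95). *Pdk1* reached 13.9, 10.97 and 15.1 in these lines at day 5, near the 12.02 of shControl cells, and was already at 11.6 in shKDM4D cells at day 0.

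The other TCA-related genes were 15 expressed of 17, of which the dicarboxylate carrier *Slc25a10* rose and the mitochondrial *Pck2* fell in shControl cells. The day 5 RPKM of *Slc25a10* was 29.0 in shControl cells and of 14.0, 12.3 and 11.4 in shKDM4D, shNFIB and shMLL1 cells. *Aco1*, the cytosolic aconitase, had a day 5 RPKM of 24.3 in shControl cells, 21.1 for shKDM4D, 15.2 for shNFIB and 11.6 for shMLL1 cells, and in the last it was past 2-fold below shControl cells (-1.06, -1.15 to -0.97). *Ogdhl*, a paralogue of *Ogdh*, exceeded shControl cells at day 5 with a log2 ratio of 1.34 (1.09 to 1.60) for shKDM4D and 2.45 (2.21 to 2.69) for shNFIB cells, and reached an RPKM of 11.8 in the latter, where *Ogdh* was at 17.9. At day 0 *Ogdhl* was already higher in these lines, at 2.65 and 5.33 against 1.41 in shControl cells.

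Of 14 other BCAA and propionate genes, 13 were expressed, and 2 rose and 1 fell in shControl cells. *Ppm1k*, the phosphatase that reactivates BCKDH, went from 0.486 to 1.31 RPKM in shControl cells (log2 1.43, 1.03 to 1.85), and its change in the knockdown lines was 1.69, 0.77 and 1.85 in shKDM4D, shNFIB and shMLL1 cells. *Mmaa*, which serves the cobalamin cofactor of methylmalonyl-CoA mutase, went from 0.866 to 1.74. The large neutral amino acid transporter *Slc7a5*, through which BCAAs enter cells, had an RPKM of 64.1 at day 0 and 9.03 at day 5 in shControl cells, 45.1 and 15.3 for shKDM4D, 16.9 and 31.4 for shNFIB, and 27.2 and 24.7 for shMLL1 cells. It fell by 2.83 on the log2 scale in shControl cells, and at day 5 it was above shControl cells in shNFIB (1.80, 1.67 to 1.93) and shMLL1 cells (1.45, 1.33 to 1.57). The lists of lipoate attachment and of glutamate and aspartate entry had no gene that rose in any line, and *Got1*, the cytosolic aspartate aminotransferase, was the only gene of them that fell (-1.09, -1.23 to -0.96, in shControl cells).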

How the data were processed

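RNA-seq was made from 8 libraries, 1 per line and day, with a SMARTer library kit. According to the study's methods and processing notes, the authors mapped reads to GRCm38 (mm10) with CLC Genomics Workbench 11.0.1, and the deposited values are RPKM per gene. RPKM values multiplied by the exon length in GENCODE M21 gave whole reads (within 0.02) for 96.2% to 96.6% of the values between 1 and 1000 reads, and hence the mapped reads per library. For *Pcx* an exon length of 4637 bases, not the annotated 4753, gave whole reads and was used. Here, ratios of RPKM without a pseudocount were computed for genes over RPKM 1 in at least 1 library. Gene ratios have exact Clopper-Pearson 95% intervals conditional on the summed reads, which cover counting error only, and differences of changes have Wald intervals. The mean change over the 4 lines was tested with limma 3.58.1 in R 4.3.3 on log2(RPKM + 0.1) with terms for line and day (3 residual degrees of freedom, trended variance, Benjamini-Hochberg adjustment over 11513 genes), added after seeing the data. Contrasts of single lines have 1 library a side and no test. Python 3.11.15, numpy 2.4.6, pandas 2.3.3 and scipy 1.17.1 were used, and the code was tested on simulated data. The rule for the 38 genes names symbols only, but the genes, blocks, lists and markers were chosen with earlier results of these data known. Values in all 8 libraries are given for genes past 2-fold in any of the 10 comparisons and for *Bcat1*, *Bcat2*, *Bckdk*, *Pcx*, *Pck1*, *Idh2* and *Cs*. The others have ranges and examples. Other pathway genes are named only where past 2-fold in shControl cells or in a knockdown line at day 5, at most 12 by size. Alternatives were pseudocounts of 0.1 and 1, no filter, RPKM over 2, 3 scalings (quantile, median-of-ratios and same sum), protein coding genes only and a limit of 1.5-fold. Promoter windows of 36 genes were found in the RefSeq table, and those of *Idh3a* and *Dbt* were not used here.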

Additional observations from a re-analysis of the deposited data

Results flagged for a closer look

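The change from day 0 to day 5 had opposite signs in 2 lines, with both counting intervals clear of 0, for 6 of the 37 genes, and the difference was not tested, since each line has 1 library per day. Of the 11513 expressed genes, 4095 were neither higher nor lower at day 5 in all 4 lines. How many of these also met the condition on the intervals was not counted, so the 6 are not set apart from other genes. For *Pdha1* the log2 ratios were 0.34 in shControl and -0.34 in shMLL1 cells, 0.682 apart. *Dlat* had 0.16 in shControl and -0.50 in shKDM4D cells (0.661 apart), and *Dld* had 0.46 in shControl and -0.18 in shKDM4D cells (0.642 apart). *Sucla2* had 0.35 in shControl and -0.14 in shMLL1 cells (0.497 apart), and *Ogdh* had 0.14 and -0.24 in the same lines (0.381 apart). *Fh1* had 0.19 in shControl and -0.17 in shKDM4D cells (0.359 apart). These are the highest and the lowest line of each gene. Other lines were above 0 as well, among them shKDM4D cells for *Pdha1* (0.19) and shNFIB cells for *Sucla2* (0.16) and *Fh1* (0.15).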

How the results depend on the processing

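Of 400 alternative values for block medians (less the median of all genes) and counts of genes past the limit, 364 stayed within the counting error of the block's genes or, for counts, within 1.5 times, 36 did not, and 0 turned direction beyond that error. A limit of 1.5-fold moved the counts most. From day 0 to day 5, 21, 15, 15 and 18 genes were then up in shControl, shKDM4D, shNFIB and shMLL1 cells (22.7%, 21.9%, 22.4% and 32.2% of all expressed genes) and 2 were down in both shControl and shKDM4D cells (17.5% and 16.8%). At day 5, 12, 15 and 9 were below shControl cells in shKDM4D, shNFIB and shMLL1 cells (9.38%, 11.7% and 8.76% of all expressed genes) and 1 was above in shMLL1 cells (12.4%). At day 0, 2, 5 and 7 were below (8.72%, 12.2% and 15.9%). With 1 added to each RPKM, 2 and 7 genes rose in shNFIB and shMLL1 cells, 1 fell in shMLL1 cells, 0 were above and 4 below shControl cells in shNFIB cells at day 5, and the BCAA median in shControl cells was 1.01. Quantile normalization left 3 rising in shNFIB and 7 in shMLL1 cells, and gave TCA medians of 0.12 in shNFIB, -0.13 in shMLL1 and 0.10 for shMLL1 over shControl cells at day 0, and a pyruvate median of -0.0442 in shMLL1 cells. It shifted the median of all genes by -0.15 in shNFIB and -0.28 in shMLL1 cells. Median-of-ratios scaling left 3 rising in shNFIB cells (shift of all genes -0.17 in shMLL1 cells), and the same sum left 1 falling in shMLL1 cells. With no filter, which adds *Pck1*, 1 gene fell in shNFIB cells and 1 was above shControl cells there at day 0. TCA medians were then 0.0477, -0.13 and -0.51 in shControl, shNFIB and shMLL1 cells, the BCAA median in shMLL1 cells was 0.66, and pyruvate medians were -0.16 in shNFIB cells and 0.37 and -0.34 for shNFIB over shControl cells at day 0 and day 5. Beyond the genes in each alternative, the cause of these shifts was not tested. A pseudocount of 0.1, an RPKM over 2 and protein coding genes only moved no value. Each condition has 1 library, so whole lines were left out of the limma test in turn: 17 to 20 genes then passed upward and 2 to 5 downward, the 2 without shKDM4D cells. Of all expressed genes, 22.5% to 23.2% then passed upward and 15.4% to 18.4% downward. *Dlat* passed downward only without shControl cells (limma adjusted p = 0.0359) and *Idh3b* upward only without shNFIB cells (0.0385). Under quantile normalization *Acad8* (0.0598), *Hibch* (0.0569) and *Pdhx* (0.0525) did not pass, nor did *Pdhx* under median-of-ratios scaling (0.0632). These settings were chosen after seeing the data.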
